A study of Mus musculus with 4 samples.

Results

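The genes that carry a cell through G2 and mitosis were examined in lineage-negative mouse bone marrow cells, the fraction left after mature blood cells are removed, which is enriched for stem and progenitor cells. The set was fixed as 50 gene symbols of known G2 and M phase function. Of these, 48 had a row in the gene table of 15607 genes, and Kif11 and Nek2 are not analysed here. The study asked whether loss of the Polycomb protein Mel18, encoded by Pcgf2, alters transcription in these cells. RNA sequencing libraries came from mice 5 and 6, labelled with a conditional Mel18 knockout in the blood system, and from mice 1 and 3, labelled wild type. All 4 were primary bone marrow samples. Neither the Cre driver nor the deleted exons, nor the age or sex of the mice, are stated in the sources used here. Each library came from a mouse of its own, and the labels also call the cells hematopoietic stem and progenitor cells.

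Libraries held between 35599564 and 46240864 counts. Pcgf2 itself had 303 and 321 counts in knockout mice 5 and 6, against 210 and 158 counts in wild type mice 1 and 3. Its count covers the whole gene, so it does not check the deletion, and "knockout" below stands for the label of the library. Nearly every gene of the filtered table had counts in every library, so detection of a marker does not check the labelled cells. Among the 14 stem and progenitor markers, the receptor gene Kit stood at 238 and 207 CPM (counts scaled to the TMM-adjusted library total) in knockout mice 5 and 6, against 226 and 195 CPM in wild type mice 1 and 3. The stem cell marker Procr was low, at 1.32 and 1.28 CPM in knockout mice 5 and 6, against 1.996 and 0.994 CPM in wild type mice 1 and 3. Transcripts of mature cells were present too. The neutrophil gene S100a8 was at 2372 and 2519 CPM in knockout mice 5 and 6, against 3554 and 4777 CPM in wild type mice 1 and 3. In such bulk samples, fewer cells of a type and less RNA per cell cannot be told apart.

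Entry into mitosis is driven by the kinase Cdk1 with its A and B cyclins, which Cdc25 phosphatases activate and the kinases Plk1 and the Auroras assist. Kinetochores then attach chromosomes to the spindle, the spindle checkpoint holds anaphase back until all are attached, and the anaphase-promoting complex with Cdc20 ends the phase by marking cyclins and securin for degradation. Transcripts of these genes peak in G2 and M and are low in resting cells, so they are widely used as a sign of cycling cells. In bone marrow, committed progenitors cycle actively while long-term stem cells are mostly at rest.

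Many promoters of the set hold certain sequence motifs. The set was not picked by sequence, but the motifs searched were already known from promoters of such genes. The hexamer TTTGAA is a common form of the cell cycle homology region, a site bound by the MuvB core of the DREAM complex and, in G2, by MuvB with B-Myb and FoxM1. CCAAT is the binding motif of the factor NF-Y, which acts at many of the same promoters. RefSeq promoter windows on GRCm38.p6, the build that mm10 represents, run from 250 bases before to 50 bases after a gene's start and were found for 39 of the 48 genes (42 windows). Cdc25c, Aurkb, Kif20a, Dlgap5, Cdca2, Foxm1, Tpx2, Ccna2 and Smc4 had no entry. On either strand, TTTGAA stood in 30 of the 42 windows (71.4%), against 12.6% of the 14039 windows of genes in the table and 17.9% of all 32851 windows. CCAAT stood in 32 of them (76.2%), against 37.5% of the windows of genes in the table and 37.4% of all windows. Both motifs stood in 26 of them (61.9%), against 5.07% of the windows of genes in the table and 6.95% of all windows. The second form TTTAAA was found in 11 windows (26.2%), against 9.42% of the windows of genes in the table and 13.2% of all windows. The E2F-type motif GGCGGGA was found in 11 (26.2%), against 19.6% of the windows of genes in the table and 11.3% of all windows. None of the 4 motifs contains another, and a match is a description of letters, not a shown binding site. In the last 150 bases of the window alone, TTTGAA stood in 27 of the 42 windows of the set and in 4.99% of the windows of genes in the table.

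The windows of the 4 most abundant genes per length with both motifs are shown because they let the spacing be read directly, with every CCAAT and TTTGAA, on either strand, in capitals. They belong to Ccnb2 (cyclin B2; chr9:70421505-70421804, minus strand), Cdc20 (the activator of the anaphase-promoting complex; chr4:118437294-118437593, minus strand), Mki67 (the Ki-67 protein that coats mitotic chromosomes; chr7:135716330-135716629, minus strand) and Top2a (topoisomerase II alpha, which untangles sister chromatids; chr11:99024140-99024439, minus strand).
Ccnb2: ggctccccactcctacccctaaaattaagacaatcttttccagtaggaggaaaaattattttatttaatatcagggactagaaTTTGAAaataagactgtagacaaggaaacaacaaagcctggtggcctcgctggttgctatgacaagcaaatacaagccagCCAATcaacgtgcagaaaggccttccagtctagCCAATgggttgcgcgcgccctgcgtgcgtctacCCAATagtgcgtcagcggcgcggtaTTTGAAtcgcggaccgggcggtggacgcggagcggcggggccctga
Cdc20: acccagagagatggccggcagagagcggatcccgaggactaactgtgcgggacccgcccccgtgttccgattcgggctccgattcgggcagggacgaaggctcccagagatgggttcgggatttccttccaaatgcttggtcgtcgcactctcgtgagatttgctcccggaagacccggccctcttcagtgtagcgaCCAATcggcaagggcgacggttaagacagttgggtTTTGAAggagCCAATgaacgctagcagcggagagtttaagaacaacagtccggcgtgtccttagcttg
Mki67: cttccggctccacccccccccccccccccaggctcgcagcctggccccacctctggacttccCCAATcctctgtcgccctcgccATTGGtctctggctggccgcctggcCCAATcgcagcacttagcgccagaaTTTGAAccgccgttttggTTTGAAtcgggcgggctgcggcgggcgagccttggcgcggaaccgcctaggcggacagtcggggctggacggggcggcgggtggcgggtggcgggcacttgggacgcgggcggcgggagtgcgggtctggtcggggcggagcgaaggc
Top2a: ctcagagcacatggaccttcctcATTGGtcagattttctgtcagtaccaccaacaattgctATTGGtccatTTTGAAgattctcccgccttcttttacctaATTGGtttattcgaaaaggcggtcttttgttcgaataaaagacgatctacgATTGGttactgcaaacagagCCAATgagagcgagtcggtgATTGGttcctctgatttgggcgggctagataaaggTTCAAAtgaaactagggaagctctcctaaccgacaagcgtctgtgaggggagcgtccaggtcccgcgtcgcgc
In Ccnb2, 3 copies of CCAAT began 87, 54 and 21 bases before the start and a TTTGAA followed at base 5 of the transcript, with a further copy 167 bases before the start. In Cdc20 the TTTGAA lay 18 bases before the start, between copies of CCAAT at 53 and 8. Mki67 held 2 copies of TTTGAA, 116 and 98 bases before the start, with 3 CCAAT motifs upstream of them. Top2a held 6 CCAAT motifs, 5 of them in reverse orientation, with a forward TTTGAA 179 bases and a reversed one 23 bases before the start.

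The set was well expressed in every library. Per length, the median gene of the set stood at 26.5 RPKM (CPM per kilobase of the gene's length, mean of the 4 libraries), against 4.83 RPKM for the median gene of the table, and all 48 lay above that median. Each gene had at least 643 counts in each library. The 5 highest by RPKM were Ccnb2 at 120.0, Cdc20 at 103, Mki67 at 98.0, Top2a at 94.8 and Smc4, a condensin subunit, at 78.7. The 5 lowest were the phosphatase gene Cdc25c at 5.18, the kinetochore protein gene Cenpf at 7.54, the kinetochore gene Ndc80 at 8.49, the securin gene Pttg1 at 8.65 and the cyclin B1 gene Ccnb1 at 9.09 RPKM. The B cyclins thus differed in level although both partner Cdk1: Ccnb2 had 14.0 and 13.1 times the RPKM of Ccnb1 in knockout mice 5 and 6, against 12.4 and 13.3 times in wild type mice 1 and 3. These ratios depend on the deposited lengths, 1531 bases for Ccnb2 and 4217 for Ccnb1. Before division by length, Ccnb2 averaged 183 CPM in knockout and 184 in wild type, and Ccnb1 averaged 37.2 and 39.5. Annotated pseudogene copies exist for both (and for Kif4), so reads of these genes may be shared with a copy. The plot of levels gives all 48 genes.

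**Figure D1:**
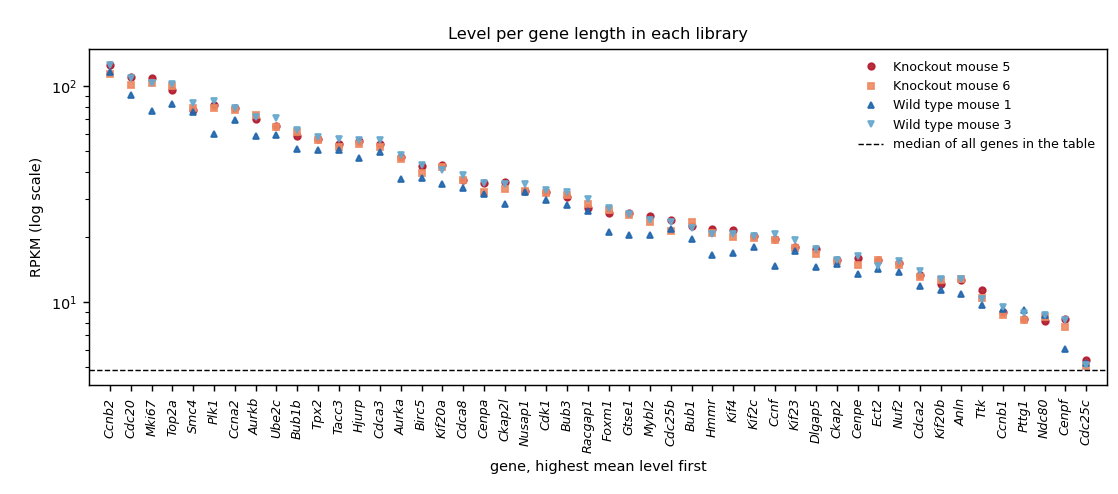
RPKM on a log axis for each of the 48 genes, ordered by mean level, with a point per library and a dashed line at the median of all genes (4.83 RPKM). The genes span 5.18 to 120.0 RPKM, and wild type mouse 1 is the lowest point for most of them.

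No gene of the set passed the test for a difference between the libraries labelled knockout and those labelled wild type. In the edgeR quasi-likelihood test over all 15607 genes, 0 of the 48 passed an adjusted p of 0.05, where 0.135% of all genes passed (0.032% higher and 0.103% lower). At an unadjusted p under 0.05 there were also 0, where 8.89% of all genes stood. Other tools also called 0 of the 48, where DESeq2 called 1.38% of all genes, the edgeR likelihood ratio test 1.13% and limma voom 0.0%. Their unadjusted p was under 0.05 for 0 of the 48 too, where it was for 7.54%, 7.42% and 8.73% of all genes in the same order of tools. With DESeq2 size factors or total counts 0.128% of all genes passed, with a filter of 1 CPM in 2 libraries 0.0783%, and 0 of the 48 in each. The authors' deposited table gave none of them a false discovery rate under 0.05 (lowest 0.871, for Hmmr), where it gave one to 1.13% of all genes. Log2 fold changes of knockout over wild type ran from -0.12 (Pttg1) to 0.24 (Mki67) with a median of 0.065, beside a median of -0.005 over all genes. They were above 0 for 37 of the 48 genes, against 48.8% of all genes. The smallest adjusted p was 0.62. As a point estimate, which sets no bound, the log2 fold change was less than 0.1 in size for 30 of the 48 genes. The 95% interval lay within 1.5-fold in either direction for 47 of the 48. The exception at 1.5-fold was Mki67, whose interval reached 1.54-fold. With 2 mice a group these intervals lean on the spread shared across genes, so they set no firm limit. An exact permutation of the labels could not give a p below 0.333.

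**Figure D2:**
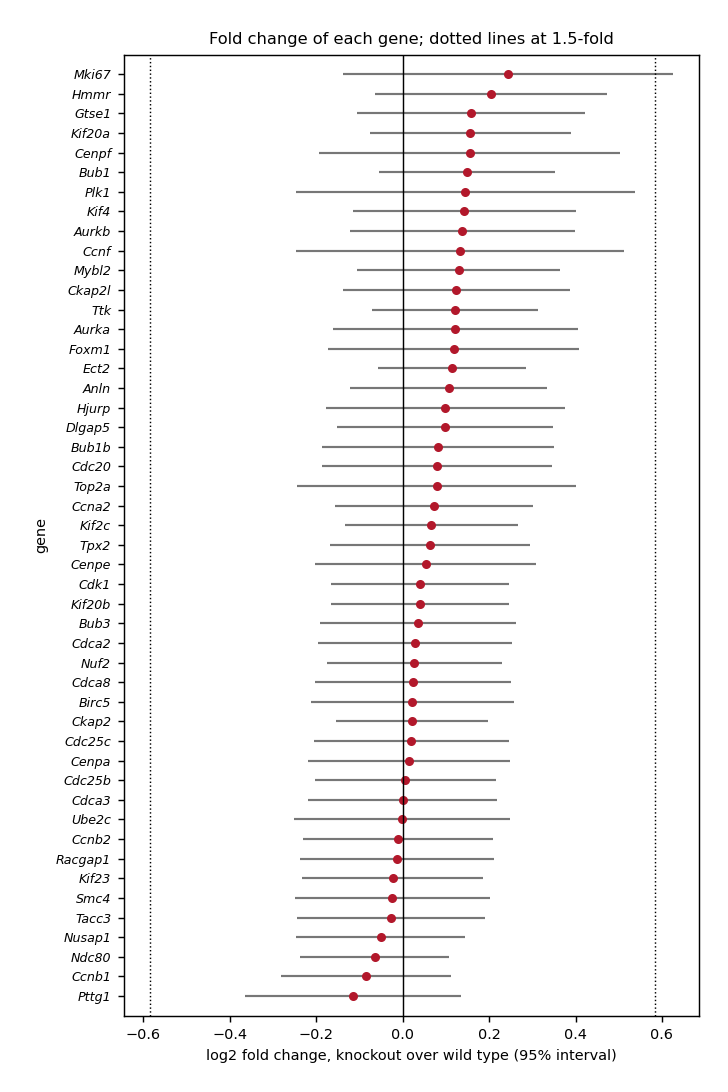
Log2 fold change of knockout over wild type for each gene (points) with its 95% interval from the quasi-likelihood fit (lines), and dotted lines at 1.5-fold. All intervals cross 0, and Mki67 alone reaches past a dotted line.

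Among the regulators of mitotic entry, 0 of 9 passed the test, where 0.135% of all genes did. At that share a call would be rare in a group of this size or of those below. The median log2 fold change of the 9 was 0.040. Cdk1, the kinase that triggers mitosis (mm10, chromosome 10, 69335146 to 69352938), stood at 160 and 158 CPM in knockout mice 5 and 6, against 146 and 162 CPM in wild type mice 1 and 3. Its knockout values lay between the wild type values, with a log2 fold change of 0.040 ± 0.088 (SE; 95% interval -0.17 to 0.25). Ccnb1 (chromosome 13, 100778650 to 100786570) had 37.9 and 36.5 CPM in knockout mice 5 and 6, against 39.2 and 39.7 CPM in wild type mice 1 and 3. Both knockout libraries were below both wild type libraries, with a log2 fold change of -0.085 ± 0.083 (SE; edgeR adjusted p = 0.759). Ccnb2 (chromosome 9, 70407692 to 70421547) had 192 and 174 CPM in knockout mice 5 and 6, against 177 and 192 CPM in wild type mice 1 and 3. The groups overlapped.

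Transcription factors that drive this gene programme did not pass either. Foxm1 (chromosome 6, 128362967 to 128376146) had 148 and 152 CPM in knockout mice 5 and 6, against 121 and 156 CPM in wild type mice 1 and 3. Mybl2, the gene of B-Myb (chromosome 2, 163054687 to 163084688), had 115 and 109 CPM in knockout mice 5 and 6, against 94.0 and 111 CPM in wild type mice 1 and 3. For both genes wild type mouse 1 was the lowest library, and the log2 fold changes were 0.12 ± 0.12 and 0.13 ± 0.10 (SE; adjusted p = 0.773 and 0.702, edgeR). Cdc25c, whose exons share 12.7% of their bases with a gene on the other strand, had 26.5 and 24.8 CPM in knockout mice 5 and 6, against 25.6 and 25.1 CPM in wild type mice 1 and 3. The groups overlapped, with knockout mice 5 and 6 at its highest and lowest values.

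Of the 5 mitotic kinases, 0 passed, where 0.135% of all genes did, and their median log2 fold change was 0.14. Plk1, the polo-like kinase of spindle assembly and mitotic entry (chromosome 7, 122159439 to 122169873), had 179 and 174 CPM in knockout mice 5 and 6, against 132 and 188 CPM in wild type mice 1 and 3. The wild type mice lay on either side of the knockout mice and further apart than for any other gene of the set, at a log2 difference of 0.51. Plk1 averaged 177 ± 3.53 CPM in knockout and 160 ± 39.4 CPM in wild type (SD, n = 2), and its 95% interval ran from -0.25 to 0.54. Aurkb, the kinase of the chromosomal passenger complex, had 208 and 215 CPM in knockout mice 5 and 6, against 174 and 211 CPM in wild type mice 1 and 3. Bub1, a checkpoint kinase at kinetochores, had 97.8 and 102 CPM in knockout mice 5 and 6, against 85.0 and 95.3 CPM in wild type mice 1 and 3. Its groups did not overlap, and the log2 fold change was 0.15 ± 0.087 (SE; edgeR adjusted p = 0.632). Ttk, the kinase Mps1 that starts checkpoint signalling, was also without overlap, at 55.5 and 51.4 CPM in knockout mice 5 and 6, against 47.6 and 50.7 CPM in wild type mice 1 and 3 (log2 fold change 0.12).

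Checkpoint and anaphase-promoting complex genes had the smallest median, 0.018 over 6 genes, with 0 past the test, where 0.135% of all genes were. Cdc20 (chromosome 4, 118432901 to 118437352) had 206 and 188 CPM in knockout mice 5 and 6, against 169 and 204 CPM in wild type mice 1 and 3. Ube2c, the ubiquitin-conjugating enzyme of the complex, averaged the same in both groups to within a log2 fold change of -0.0016, and Cdca3 likewise showed a log2 fold change of 0 to 2 decimals. Their 95% intervals ran from -0.25 to 0.25 and from -0.22 to 0.22. Ube2c shares 22.8% of its exon bases with Tnnc2 on the other strand. The securin gene Pttg1 (chromosome 11, 43420250 to 43426251) had 16.7 and 16.5 CPM in knockout mice 5 and 6, against 18.2 and 17.8 CPM in wild type mice 1 and 3. Its groups did not overlap, and at -0.12 ± 0.11 (SE) it had the lowest log2 fold change of the set (edgeR adjusted p = 0.746).

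At centromeres and kinetochores, 0 of 8 genes passed, where 0.135% of all genes did, and the median log2 fold change was 0.025. Ndc80, the kinetochore's microtubule coupler (chromosome 17, 71496100 to 71526857), had 52.8 and 55.0 CPM in knockout mice 5 and 6, against 56.6 and 56.1 CPM in wild type mice 1 and 3. It completed, with Ccnb1 and Pttg1, the 3 genes whose knockout libraries were both below both wild type libraries, where 20.9% of all genes were. Cenpf (chromosome 1, 189640606 to 189688086) had 128 and 117 CPM in knockout mice 5 and 6, against 93.6 and 127 CPM in wild type mice 1 and 3. The histone variant gene Cenpa, which marks the centromere, and the survivin gene Birc5, a chromosomal passenger, had log2 fold changes of 0.014 and 0.023.

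Motors, spindle proteins, chromosome proteins and cytokinesis genes numbered 20, of which 0 passed, where 0.135% of all genes did. Hmmr, a spindle and hyaluronan-binding protein (chromosome 11, 40701395 to 40733422), had the smallest p of the set, 0.117. It stood at 118 and 113 CPM in knockout mice 5 and 6, against 89.3 and 112 CPM in wild type mice 1 and 3. Its groups were apart by a narrow margin at wild type mouse 3, with a log2 fold change of 0.20 ± 0.11 (SE; edgeR adjusted p = 0.62). Mki67 (chromosome 7, 135689784 to 135716361) had 1100 and 1039 CPM in knockout mice 5 and 6, against 769 and 1038 CPM in wild type mice 1 and 3. The log2 fold change of 0.24 ± 0.16 (SE) was the highest of the set (edgeR adjusted p = 0.667). Wild type mouse 3 lay within 2 CPM of knockout mouse 6, while mouse 1 was far below. Top2a (chromosome 11, 98992943 to 99024189) had 859 and 896 CPM in knockout mice 5 and 6, against 743 and 919 CPM in wild type mice 1 and 3. The groups overlapped.

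Wild type mouse 1 was also the lowest library for the remaining genes of smallest p. The motor gene Kif20a, needed at the central spindle, had 186 and 182 CPM in knockout mice 5 and 6, against 153 and 178 CPM in wild type mice 1 and 3. It shares 29.3% of its exon bases with Cdc23 on the other strand. Kif4, a chromosome-bound motor that shares 15.1% of its exon bases with Pdzd11 on the other strand, had 118 and 109 CPM in knockout mice 5 and 6, against 93.1 and 113 CPM in wild type mice 1 and 3. The spindle protein gene Gtse1 had 70.9 and 69.2 CPM in knockout mice 5 and 6, against 55.6 and 70.0 CPM in wild type mice 1 and 3. In all 3, wild type mouse 1 was lowest, and edgeR adjusted p values lay between 0.655 and 0.702. Ect2, the exchange factor that starts the cleavage furrow, was instead tight within groups, at 83.7 and 83.8 CPM in knockout mice 5 and 6, against 76.1 and 78.7 CPM in wild type mice 1 and 3 (log2 fold change 0.12 ± 0.073, SE; adjusted p = 0.655). Smc4 had 402 and 411 CPM in knockout mice 5 and 6, against 394 and 434 CPM in wild type mice 1 and 3, with knockout inside the wild type range. Over the whole set, knockout libraries were both above both wild type libraries for 6 genes (Hmmr, Bub1, Kif20a, Ect2, Mki67 and Ttk), where 21.4% of all genes were.

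The clearest pattern in the set lay between mice of the same label. Wild type mouse 1 was the lowest of the 4 libraries for 42 of the 48 genes (87.5%), against 34.8% of all genes, and mouse 3 was above mouse 1 for 45, against 54.2% of all genes. For 25 genes (52.1%, against 9.12% of all genes) both knockout libraries lay between wild type mouse 1 as the lowest and mouse 3 as the highest. The median log2 difference of mouse 3 over mouse 1 was 0.20 in the set and 0.021 over all genes. It ran from -0.038 (Pttg1) to 0.51 (Plk1), followed at the top by Ccnf, a cyclin that acts in ubiquitin ligases (0.49), Cenpf (0.44) and Mki67 (0.43). Near 0 were Pttg1, Cdc25c (-0.028), Ndc80 (-0.012) and Ccnb1 (0.018), all among the 5 lowest by RPKM. The remaining gene of those 5, Cenpf, was near the top instead, at 0.44. The knockout mice differed less, with a median absolute log2 difference of 0.050 in the set against 0.20 for the wild type pair, while over all genes these were 0.11 and 0.18. Summed over the set, levels were 8843 and 8669 CPM in knockout mice 5 and 6, against 7536 and 8995 CPM in wild type mice 1 and 3. Among genes of the set with a promoter window, the median difference between the wild type mice was 0.27 for the 24 with both TTTGAA and CCAAT in a window and 0.17 for the other 15. Over all genes, the set included, it was 0.053 for the 670 with both motifs in a window. It was 0.030 for the 10354 with a window but without both. Whether the motifs bear on this difference was not tested.

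**Figure D3:**
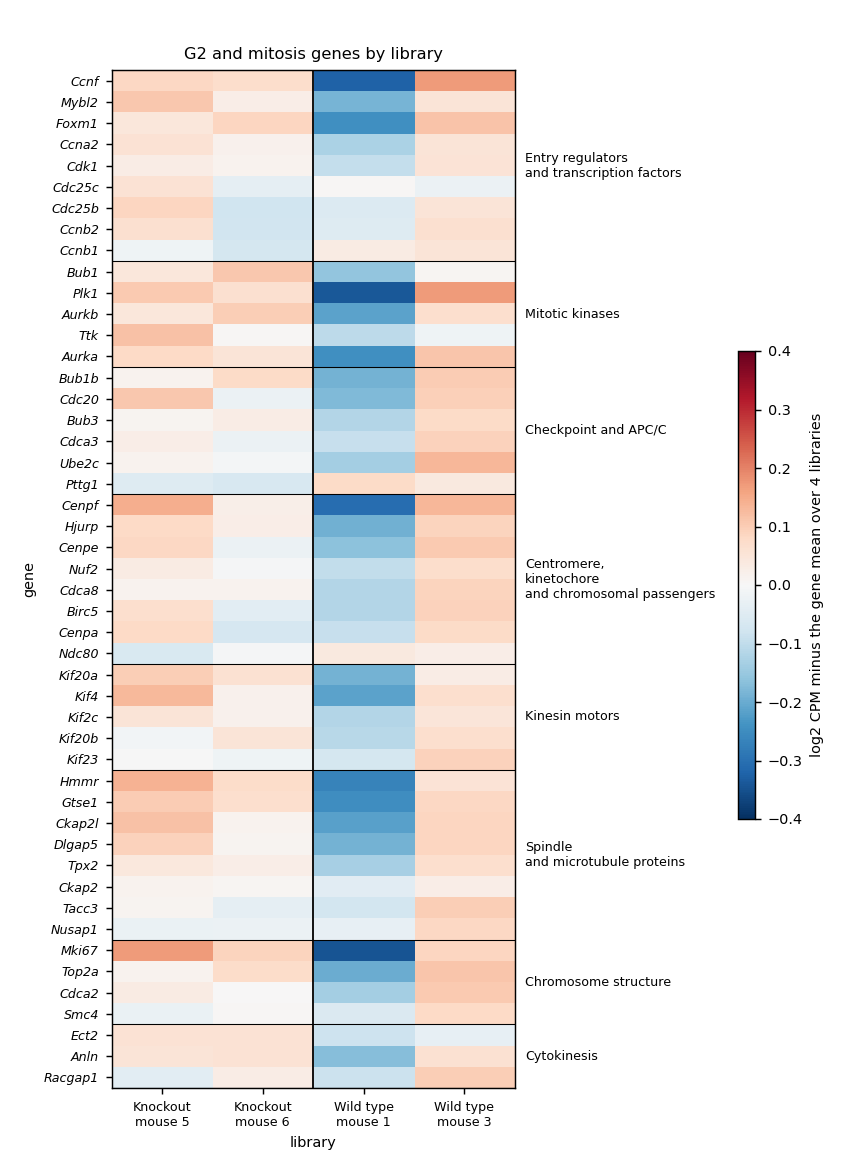
Each row is a gene and each column a library; colour gives log2 CPM less the gene's mean over the 4 libraries. Rows are grouped by role, and the column of wild type mouse 1 is the lowest for 42 of the 48 genes.

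The fold changes followed which wild type mouse was kept. Without wild type mouse 1 the median log2 fold change of the set was -0.049, and 11 of 48 genes were above 0, where 50.7% of all genes were. Without wild type mouse 3 it was 0.15, with 43 of 48 above 0, where 48.7% of all genes were. In that fit the lone wild type library is assumed to vary like the knockout libraries, and 5 genes passed the edgeR quasi-likelihood test, all higher: Plk1 (log2 fold change 0.41), Ccnf (0.39), Cenpf (0.38), Hmmr (0.37) and Gtse1 (0.32), with adjusted p from 0.0246 to 0.0402. Of all genes, 5.41% passed there, and 2.59% were called higher. At an unadjusted p under 0.05 there were 20 of the 48, where 24.5% of all genes stood. After removal of wild type mouse 1, knockout mouse 5 or knockout mouse 6, 0 of the 48 passed, where 1.85%, 0.0322% and 0.116% of all genes passed in the same order of removals.

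A list of 120 further G2 and M genes held, for instance, condensin, kinetochore and anaphase-promoting complex subunits. Of these 120, 0 passed the edgeR test in either direction, where 0.135% of all genes passed. At an unadjusted p under 0.05 there was 1, where 8.89% of all genes stood. The list had a median log2 fold change of 0.023. Its smallest p was that of Anapc1, the largest subunit of the anaphase-promoting complex, at 291 and 283 CPM in knockout mice 5 and 6, against 224 and 258 CPM in wild type mice 1 and 3 (log2 fold change 0.25, adjusted p = 0.519). The kinetochore scaffold gene Knl1 had a log2 fold change of 0.23, while Pimreg and the centromere gene Cenph had -0.21 and -0.17. Wild type mouse 1 was below mouse 3 for 95 of the 120, against 54.2% of all genes. It was the lowest of the 4 libraries for 70, against 34.8% of all genes, and mouse 3 was the highest for 51, against 24.2%.

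Of 70 S phase and replication genes, 0 passed the edgeR test, where 0.135% of all genes passed, and the median log2 fold change was 0.087. At an unadjusted p under 0.05 there were 2, where 8.89% of all genes stood. The polymerase delta subunit gene Pold2 had 117 and 119 CPM in knockout mice 5 and 6, against 101 and 106 CPM in wild type mice 1 and 3 (log2 fold change 0.19, adjusted p = 0.534), and the repair genes Brca2 and Brca1 had 0.20 and 0.26. Both knockout libraries were above both wild type libraries for 27 of the 70, where 21.4% of all genes were. Wild type mouse 1 was the lowest library for 56 of the 70, against 34.8% of all genes. The highest was knockout mouse 5 for 42, against 3722 of all 15607 genes. It was wild type mouse 3 for 14, against 24.2% of all genes.

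Markers of cell types also differed between the mice, and their part in the values above was not tested. Relative to each gene's mean, stem and progenitor markers had library medians of -0.018 and -0.051 in knockout mice 5 and 6, against 0.29 and -0.19 in wild type mice 1 and 3, so that mouse 1 was highest where it was lowest for the G2 and mitosis genes. Of these 14 markers, 13 were higher in wild type mouse 1 than in mouse 3, and their summed level was 1658 and 1525 CPM in knockout mice 5 and 6, against 1701 and 1487 CPM in wild type mice 1 and 3. The 18 erythroid markers summed to 4867 and 3855 CPM in knockout mice 5 and 6, against 3331 and 4010 CPM in wild type mice 1 and 3, with mouse 1 again lowest. The 14 neutrophil markers summed to 14732 and 14949 CPM in knockout mice 5 and 6, against 20809 and 29506 CPM in wild type mice 1 and 3. For 13 of them the knockout libraries both lay below the wild type pair, where 20.9% of all genes did. Fpr2, Retnlg and Cxcr2 were past the test, all lower (edgeR adjusted p from 0.0353 to 0.0449), where 0.103% of all genes were called lower. The 12 megakaryocyte markers summed to 417 and 365 CPM in knockout mice 5 and 6, against 283 and 261 CPM in wild type mice 1 and 3. Ppbp and Pf4 were past the test, both higher (edgeR adjusted p = 0.016 and 0.0477), where 0.032% of all genes were called higher. None of the other marker lists had a gene past it. The 12 T and NK markers summed to 440 and 442 CPM in knockout mice 5 and 6, against 548 and 444 CPM in wild type mice 1 and 3. Sums of 14 monocyte, macrophage and dendritic markers ran from 1022 to 1110 CPM in knockout and from 1098 to 1233 CPM in wild type, and those of 11 B lineage markers from 232 to 276 CPM and from 274 to 324 CPM. The 12 stroma and endothelium markers with a row summed to 713 and 673 CPM in knockout mice 5 and 6, against 132 and 236 CPM in wild type mice 1 and 3. Of these, Lum, a matrix gene, was at 0 counts in wild type mouse 1. No other marker of these lists was at 0 in any library.

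**Figure D4:**
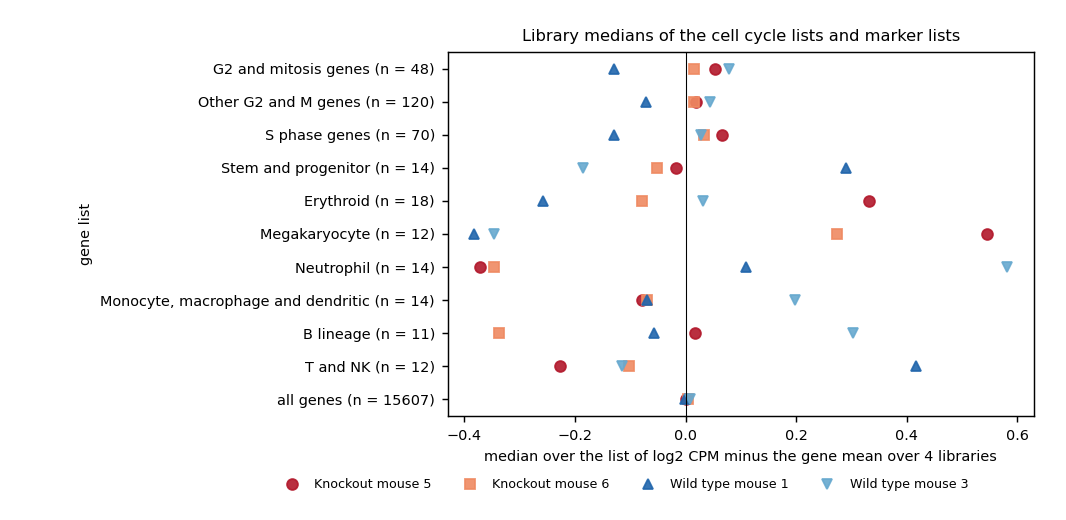
For each gene list, the median over its genes of log2 CPM less the gene's mean over the 4 libraries, with a point per library. Wild type mouse 1 is lowest for the cell cycle lists (-0.13 for the G2 and mitosis genes) and for the erythroid (-0.26) and megakaryocyte (-0.38) markers. It is highest for the stem and progenitor (0.29) and the T and NK (0.42) markers.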

How the data were processed

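RNA was sequenced from 4 libraries of lineage-negative bone marrow cells, 2 mice per group. Per the labels' protocols, the cDNA kit was SMART-Seq and the library kit Nextera XT. FastQC, MultiQC 0.11.5, Trimmomatic 0.40, STAR 2.5, edgeR 3.28.1 and build mm10 are named in the submitters' processing notes. The sources used here name no read counter and no strand setting, so reads of genes that overlap on opposite strands cannot be told apart. The deposited table holds whole-number counts per gene, not normalized. The authors also deposited log2 CPM and log2 RPKM, with a log2 fold change, a p-value and a false discovery rate for each gene. A further 2 columns of per-sample values match no labelled sample and were not used. Every row has at least 24 counts in all, so the table appears filtered on low counts. All 48 genes matched GENCODE M21 in chromosome, start and end.

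The deposited counts were scaled by TMM and tested by the robust quasi-likelihood F test of edgeR 4.0.16 (R 4.3.3), with 2 residual degrees of freedom. P-values were adjusted by Benjamini-Hochberg over all 15607 genes, with a threshold of 0.05. The filterByExpr step removed 0 genes. CPM uses TMM-scaled totals, and RPKM divides it by the deposited gene length. Standard errors come from the F statistic, and 95% intervals from it and the total degrees of freedom. The smallest count of a gene of the set was 643, for Pttg1 in wild type mouse 3. Counting error was not separated from the spread between mice, and for genes of low count it need not be small beside that spread. The procedure was tested on simulated counts, where part of the smaller changes was not called and false calls were more frequent than the threshold allows for. Alternatives were DESeq2 size factors, total counts, DESeq2 1.42.0, limma voom (limma 3.58.1), the likelihood ratio test, other filters and removal of each library.

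The members, lists, motifs and tests were chosen with earlier results of these data known. Values per library are given for genes of main role, the 8 of smallest p and the 5 highest and 5 lowest by RPKM; others are named as examples of their group. Protein sequences were not used here, so the planned count of degradation motifs was not made.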

Additional observations from a re-analysis of the deposited data

How the results depend on the processing

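Alternative settings were DESeq2 size factors, total counts, DESeq2, limma voom, the likelihood ratio test, no filter and a filter of 1 CPM in 2 libraries. In each, 0 of the 48 genes, 0 of the 120 other G2 and M genes and 0 of the 70 S phase genes passed. Of all genes, between 0.0% (limma voom) and 1.38% (DESeq2) passed. The median log2 fold change of the set stayed between 0.061 and 0.068. Removing each library in turn gave 0 to 5 genes of the set, 0 to 6 of the other G2 and M genes, 0 to 8 S phase genes, and medians of the set from -0.049 to 0.15, the lowest when wild type mouse 1 was removed and the highest when mouse 3 was. The highest count of each list came after removal of wild type mouse 3, where a lone wild type library was left and 5.41% of all genes passed. All genes of these lists called after removal of mouse 3 were higher, where 2.59% of all genes were called higher. Single calls among the other G2 and M genes were Hmgb2, a chromatin protein gene, lower without knockout mouse 6 and Ckap4, known as an endoplasmic reticulum protein, lower once wild type mouse 1 was left out (log2 fold change -0.39). Over the same removals the log2 fold change ran from -0.033 to 0.108 for Cdk1, -0.087 to 0.413 for Plk1, -0.051 to 0.213 for Cdc20, -0.067 to 0.232 for Top2a, -0.051 to 0.301 for Foxm1, -0.046 to 0.381 for Cenpf, -0.087 to 0.058 for Ccnb2, -0.092 to 0.038 for Smc4 and -0.032 to 0.067 for Cdc25c, each changing sign. The cause was not tested. The other 13 of the 22 genes with values given per library kept their sign, among them the 8 of smallest p. Those 8 were ranked by p in these same libraries, so a kept sign is no separate support. Without wild type mouse 1, some of the 13 came close to 0, such as Gtse1 (0.003), Aurkb (0.004) and Kif4 (0.009), while Ect2 stayed at 0.09. Further genes of the set changed sign too. Without wild type mouse 1 and without mouse 3, Ccnf had log2 fold changes of -0.092 and 0.391, and Ube2c -0.13 and 0.13. In the last 150 bases of the promoter window GGCGGGA stood in 14.3% of the windows of the set, against 12.6% of the windows of genes in the table. Over the whole window these shares were 26.2% and 19.6%. No paired analysis was possible because the mouse numbers differ between the groups.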
